A study of Homo sapiens with 6 samples.

Results

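Respiratory complexes II to V are described here through their nuclear-encoded genes in SW480 cells, an established line from a human colorectal adenocarcinoma. A list of 50 genes was written by role: complex II with its assembly factors, complex III, cytochrome c, complex IV subunits, complex IV assembly factors and complex V. Of these, 46 were measured, out of 22412 genes tested. SDHB and UQCRFS1 were not analysed here because no named row carried them, and UQCRH and COX7C stood on rows that also carry another gene's symbol. Cells were transfected for 48 h with 30 pmol of siRNA, either KHSRP siRNA or scramble siRNA, a non-targeting control, and both groups received the same lipid transfection reagent. The protein made from KHSRP binds RNA, and transcripts with AU-rich elements are known to decay with its help. Amplified, biotin-labelled cDNA was read on Affymetrix arrays, with 3 arrays per group that the labels call biological replicates. Nothing given here says whether these came from separate cultures, so the p-values measure the spread between these arrays.

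Oxidative phosphorylation passes electrons from food-derived carriers to oxygen along protein complexes of the inner mitochondrial membrane. Complex II feeds in electrons from succinate, complex III hands them to cytochrome c, and complex IV passes them to oxygen. The proton gradient that the pumping complexes build drives complex V, the ATP synthase. Most subunits are encoded in the nucleus and a few in mitochondrial DNA, so both genomes have to supply parts of the same machine. The transcription factors NRF1, GABP of the ETS family and YY1 are known for binding the promoters of many of the nuclear genes.

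Values are the deposited log2 intensities, and differences are given as KHSRP siRNA minus scramble siRNA, with limma's standard error (SE). Calls were made where the p adjusted over all tested genes was under 0.05, and "rose" and "fell" are used for called genes only. The KHSRP row, which also carries the symbol of a microRNA gene, read 5.62, 5.60 and 5.56 in the arrays labelled KHSRP siRNA and 5.75, 5.59 and 5.64 in those labelled scramble siRNA. The groups overlapped, and the difference was -0.07 (SE 0.08, limma adjusted p = 0.804). The knockdown could not be seen at this row, so nothing here checks which arrays received which siRNA, and the groups are called KHSRP-labelled and scramble-labelled arrays below. Of the 10 colon epithelial markers, EPCAM stood at 12.19 and 12.11 and KRT18 at 15.82 and 15.33 in the KHSRP-labelled and scramble-labelled arrays, while KRT20, CDX1 and LGALS4 had means under 4.73, a level that 95% of 366 olfactory receptor genes do not pass. Of these 10 markers 0 were called by limma, and 5 were higher at an unadjusted p under 0.05 with separate groups (KRT8, KRT18, KRT19, VIL1 and LGALS4). KRT8 differed by 0.58 (limma adjusted p = 0.0717), KRT18 by 0.49 and KRT19 by 0.55, so these keratins moved in the direction of most members described below. The list's median difference was 0.15, and its part in the members' differences was not tested. No marker of leukocytes, fibroblasts or muscle, endothelium, hepatocytes or neurons was called (smallest limma adjusted p = 0.260), and their mean levels ran from 3.26 to 4.98. All 46 members had group means above 4.73.

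Most members read higher in the KHSRP-labelled arrays, and all measured genes of complex III and all complex IV subunit genes did so, although few passed the test over all genes. UQCRC2, a core protein of complex III, and COX6A1, a small subunit of complex IV, rose by 0.53 and 0.91 on the log2 scale. Both calls ended in 12 of 16 alternatives, including the replicate block and all 6 fits that leave out an array, and both directions held in all 16. These were the 2 members called of 46, both higher, where 0.759% of all tested genes were called and 0.509% were called higher. The lowest member was COX15, which makes the heme of complex IV, at -0.65 (limma adjusted p = 0.0705). Differences of the members ran from -0.65 to 0.91, with a median of 0.32, against a median of 0.02 over all tested genes. In such bulk RNA, a change in every cell and a change in the make-up of the culture cannot be told apart. The fitted difference was above 0 for 38 of the 46, as it was for 55.0% of all tested genes. At an unadjusted limma p under 0.05, 23 members were higher and 2 lower, against 8.51% and 5.89% of all tested genes (14.4% in either direction). The 3 KHSRP-labelled values all lay above the 3 scramble-labelled ones for 22 members and below them for 4, against 11.6% and 7.82% of all tested genes (19.4% in either direction).

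**Figure D1:**
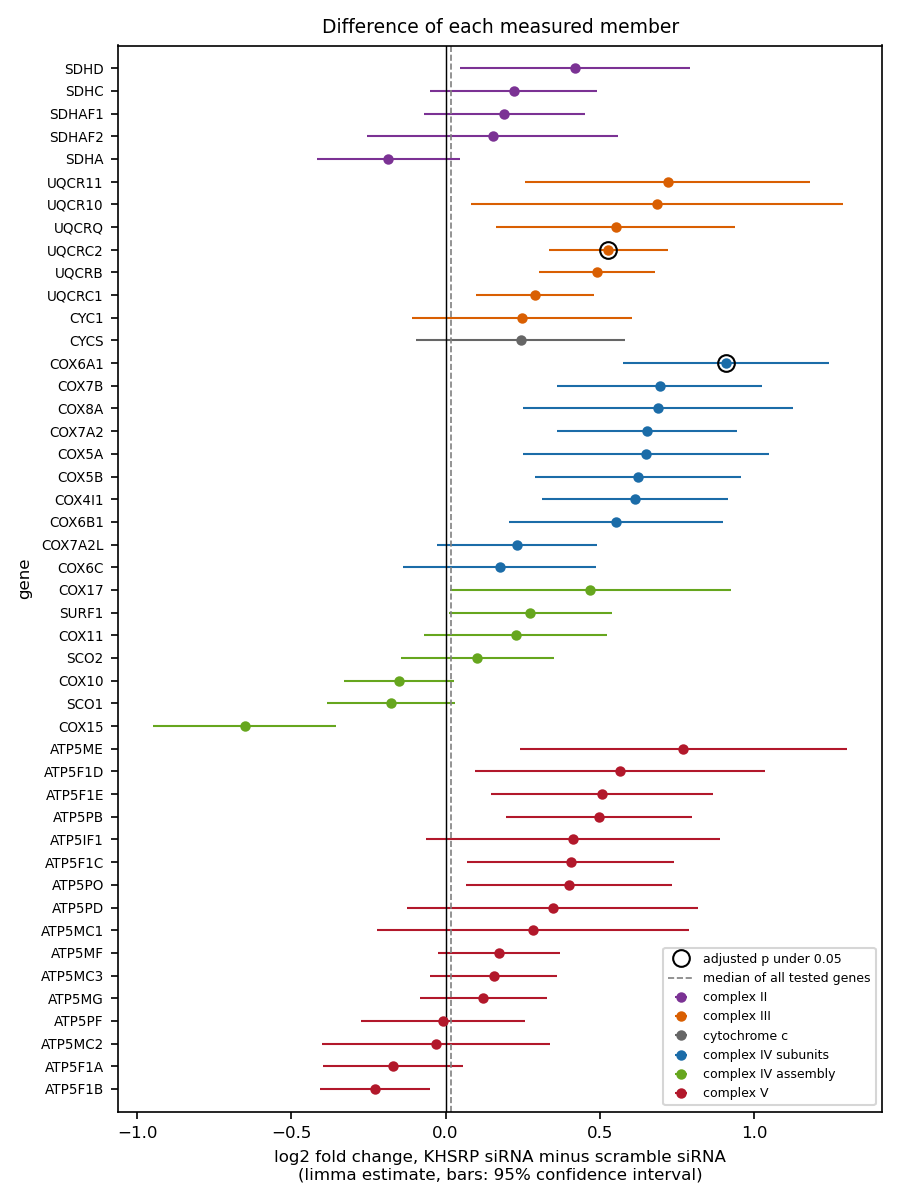
Each point is a measured member's log2 fold change, KHSRP-labelled minus scramble-labelled arrays, with limma's 95% confidence interval, coloured by role; open circles mark an adjusted p under 0.05 and the dashed line is the median of all tested genes. All 7 complex III genes and all 10 complex IV subunit genes lie above 0, while COX15 lies lowest at -0.65.

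Promoter windows are shown for the 2 called members, for UQCR11, which had the largest difference in complex III, and for COX15, the lowest member. They are RefSeq windows of GRCh38.p14, from 250 bases before to 50 after the annotated start, and are used as sequence alone because the array data were processed on hg19. Capitals mark 3 core motifs searched on both strands: CGCANGCG for NRF1, CCGGAAG for the ETS family and AANATGGC for YY1. The windows are chr12:120437863-120438162 on the plus strand for COX6A1, chr16:21953111-21953410 on the plus strand for UQCRC2, chr19:1605413-1605712 on the minus strand for UQCR11 and chr10:99732078-99732377 on the minus strand for COX15.
COX6A1: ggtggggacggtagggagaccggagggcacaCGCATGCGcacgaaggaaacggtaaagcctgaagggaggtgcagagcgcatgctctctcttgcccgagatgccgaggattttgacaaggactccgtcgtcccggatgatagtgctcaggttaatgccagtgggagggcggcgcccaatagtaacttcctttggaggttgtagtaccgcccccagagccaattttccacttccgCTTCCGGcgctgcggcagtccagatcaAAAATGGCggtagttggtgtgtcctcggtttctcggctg
UQCRC2: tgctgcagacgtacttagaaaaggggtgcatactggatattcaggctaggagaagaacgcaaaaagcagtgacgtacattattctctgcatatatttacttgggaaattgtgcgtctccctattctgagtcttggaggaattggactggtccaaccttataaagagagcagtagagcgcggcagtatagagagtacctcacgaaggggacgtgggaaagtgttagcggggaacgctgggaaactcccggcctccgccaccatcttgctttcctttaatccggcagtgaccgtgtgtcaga
UQCR11: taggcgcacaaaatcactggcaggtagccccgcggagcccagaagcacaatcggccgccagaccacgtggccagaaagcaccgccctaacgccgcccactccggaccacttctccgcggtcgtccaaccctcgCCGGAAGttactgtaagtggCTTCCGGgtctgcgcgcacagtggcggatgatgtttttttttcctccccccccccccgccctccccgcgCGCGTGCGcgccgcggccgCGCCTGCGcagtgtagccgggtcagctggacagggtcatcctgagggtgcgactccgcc
COX15: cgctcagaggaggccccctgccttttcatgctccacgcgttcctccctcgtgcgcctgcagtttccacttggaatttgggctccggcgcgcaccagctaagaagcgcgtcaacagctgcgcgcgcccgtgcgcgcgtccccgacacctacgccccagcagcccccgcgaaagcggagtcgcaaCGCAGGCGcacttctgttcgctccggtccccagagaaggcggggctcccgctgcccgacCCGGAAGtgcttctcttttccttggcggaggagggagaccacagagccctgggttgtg
The COX6A1 window holds 1 match to each of the 3 cores. UQCR11 holds 4 matches, to the ETS and NRF1 cores, and COX15 holds 2, also to those. The UQCRC2 window holds 0 matches to these letters. None of the matches shown overlaps another.

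Windows were given for 36 of the measured members, 43 windows in all, and for the other 10 none is shown or counted. The ETS core stood in 48.8% of the member windows and in 10.3% of all 35116 windows, or 17.6% of the 11878 windows of genes above the median array level. The NRF1 core stood in 30.2% of the member windows, 10.0% of all and 17.3% of those of genes above the median level. For the YY1 core the shares were 32.6%, 6.58% and 9.86%. At least 1 of the 3 cores was found for 29 of the 36 members, counting a member if any of its windows held a core. Of all windows 23.2% held a core, which is a share per window and not per gene. This share was not counted for genes above the median level. Of other elements, GGGCGG stood in 58.1% of the member windows, 45.0% of all and 66.1% of those of genes above the median level. For CCAAT these shares were 37.2%, 34.6% and 35.1%, and for TATAAA 6.98%, 11.5% and 6.44%. Longer forms, the NRF1 core with G before and C after it and CCGGAAGT, stood in 20.9% and 30.2% of the member windows. Their shares were 5.78% and 4.14% of all windows, and 10.5% and 7.75% of those of genes above the median level.

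Members with and without each core had close median differences between the siRNA groups, given as a description. The 19 members with the ETS core had a median log2 fold change of 0.42, and the 17 without it 0.41. With the NRF1 core the median was 0.41 over 13 members, and without it 0.41 over 23. With the YY1 core it was 0.40 over 13 members, and without it 0.41 over 23. COX6A1 and COX15 stood at opposite ends of the members, and both windows hold the NRF1 and ETS cores.

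Complex II oxidises succinate and is also an enzyme of the citric acid cycle. None of its 5 measured genes was called, and their median log2 fold change was 0.19. SDHD, a membrane anchor subunit, read 9.72, 9.57 and 9.30 in the KHSRP-labelled arrays and 9.19, 8.83 and 9.32 in the scramble-labelled ones. Its highest scramble-labelled value lay just above its lowest KHSRP-labelled value, so the groups overlapped. The difference was 0.42 (SE 0.16, limma adjusted p = 0.287). SDHC, the other anchor, was at 0.22 (SE 0.12), and SDHA, the flavoprotein that holds the succinate site, was at -0.19 (SE 0.10). The assembly factors SDHAF1, which acts on the iron-sulfur subunit, and SDHAF2, which attaches flavin to SDHA, were at 0.19 (SE 0.11) and 0.15 (SE 0.17). For all 5 genes the groups overlapped.

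Complex III transfers electrons from coenzyme Q to cytochrome c. All 7 measured genes were fitted above 0, from 0.25 to 0.72, with a median of 0.53. UQCRC2 read 9.53, 9.41 and 9.60 in the KHSRP-labelled arrays and 8.98, 9.02 and 8.96 in the scramble-labelled ones. Every KHSRP-labelled value lay above every scramble-labelled one, and both groups were tight. Its mean rose from 8.99 ± 0.03 to 9.51 ± 0.10 (SD, n = 3 each), a log2 fold change of 0.53 (SE 0.08, limma adjusted p = 0.0473), or 1.44-fold. UQCRB, a small subunit near the coenzyme Q site, read 6.19, 6.08 and 6.20 against 5.71, 5.69 and 5.60. These groups did not overlap either, and the difference of 0.49 (SE 0.08) just missed the threshold at a limma adjusted p of 0.0515.

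UQCRC1, the partner core protein of UQCRC2, read 8.03, 8.07 and 8.19 against 7.85, 7.79 and 7.77, and its groups did not overlap. The difference was 0.29 (SE 0.08, limma adjusted p = 0.163), with a 95% interval from 0.10 to 0.48. UQCR11, a small subunit, read 7.33, 7.43 and 7.46 against 6.79, 6.22 and 7.04, with the scramble-labelled arrays far apart and the KHSRP-labelled ones close together. That gave 0.72 (SE 0.20, limma adjusted p = 0.153). UQCRQ was at 0.55 (SE 0.16) with separate groups, and UQCR10 at 0.69 (SE 0.26), where replicate 2 of the KHSRP-labelled arrays, at 7.49, lay below the highest scramble-labelled value of 7.50. CYC1, which carries the heme of cytochrome c1, was at 0.25 (SE 0.15). The row carrying both UQCRH and UQCRHL was at 0.28 (SE 0.20), with overlapping groups.

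Cytochrome c, encoded by CYCS, carries electrons from complex III to complex IV and is also released from mitochondria in apoptosis. CYCS read 13.59, 13.15 and 13.52 in the KHSRP-labelled arrays and 13.38, 13.07 and 13.09 in the scramble-labelled ones. Replicate 2 of the former lay between the scramble-labelled values, and the groups overlapped. The difference was 0.24 (SE 0.14, limma adjusted p = 0.530), and 0.021 after quantile normalization again. The gene table names 45 pseudogenes after CYCS, more than for any other member.

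**Figure D2:**
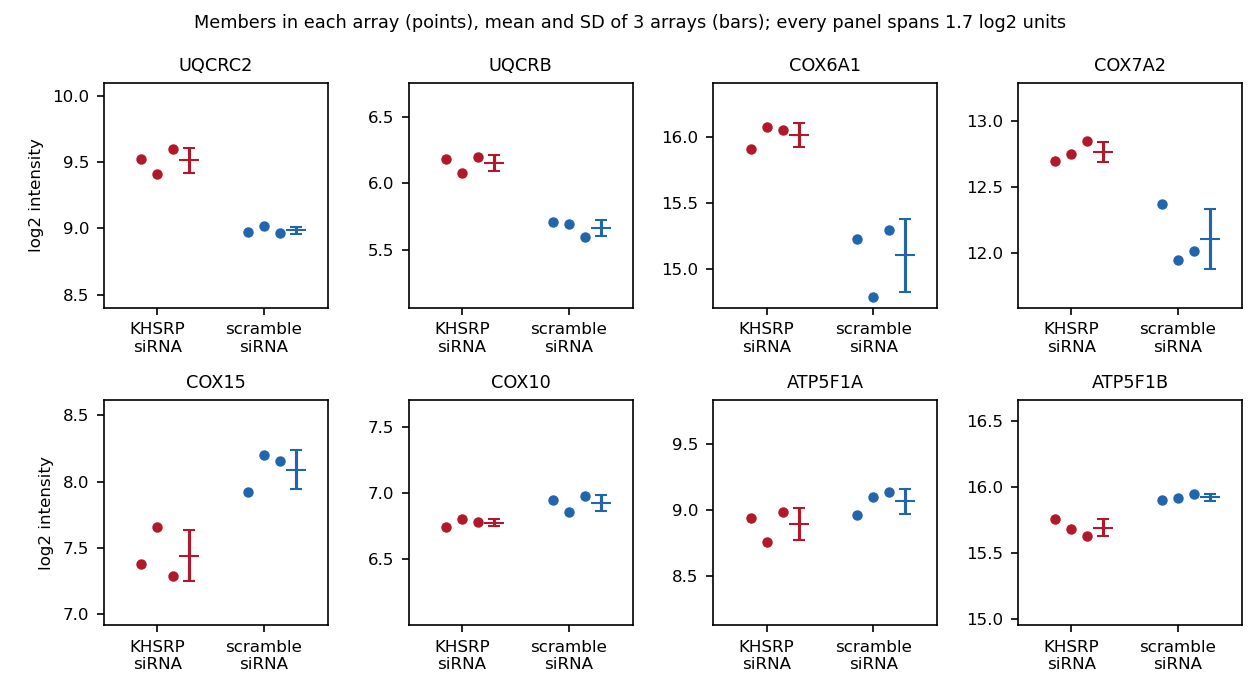
Points are log2 intensities of 8 members in each array, with the mean and SD of 3 arrays per group beside them; every panel has the same height in log2 units. UQCRC2, UQCRB, COX6A1 and COX7A2 have every KHSRP-labelled value above every scramble-labelled one, COX15, COX10 and ATP5F1B the opposite, and ATP5F1A overlaps.

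Complex IV, cytochrome c oxidase, has a catalytic core encoded in mitochondrial DNA, surrounded by small nuclear-encoded subunits. The 10 measured genes grouped as subunits were all fitted above 0, with a median log2 fold change of 0.64. The arrays' groups were separate and higher for 9 of these genes, as they were for 11.6% of all tested genes. Both figures count COX7A2L, which is described below for its part in supercomplexes. COX6A1, the liver-type form of subunit VIa found in most tissues, read 15.91, 16.08 and 16.05 in the KHSRP-labelled arrays and 15.22, 14.79 and 15.29 in the scramble-labelled ones. The nearest values of the groups, 15.91 and 15.29, were further apart than the values within either group. Its mean rose from 15.10 ± 0.27 to 16.01 ± 0.09 (SD, n = 3 each), a log2 fold change of 0.91 (SE 0.14, limma adjusted p = 0.0473), or 1.88-fold. Both called members shared the adjusted p of 0.0473, just inside the threshold. With 1 array left out, UQCRC2 lay between 0.48 and 0.58 (limma adjusted p from 0.0666 to 0.175) and COX6A1 between 0.75 and 1.00 (from 0.0531 to 0.172).

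Of the other complex IV subunit genes, 7 had differences between 0.55 and 0.69. COX7A2 read 12.70, 12.75 and 12.84 against 12.37, 11.95 and 12.01, a difference of 0.65 (SE 0.12, limma adjusted p = 0.0675). COX7B read 14.12, 13.98 and 14.33 against 13.69, 13.43 and 13.24, a difference of 0.69 (SE 0.14, limma adjusted p = 0.0772). In both genes the lowest KHSRP-labelled value stood above the highest scramble-labelled one. COX4I1, the subunit that forms the first assembly intermediate with COX5A, was at 0.62 (SE 0.13, limma adjusted p = 0.0827), and COX5A at 0.65 (SE 0.17, limma adjusted p = 0.137). COX5B, which binds zinc on the matrix side, was at 0.62 (SE 0.14), COX8A at 0.69 (SE 0.19) and COX6B1, which faces the intermembrane space, at 0.55 (SE 0.15). All of these had separate groups, and none passed over all genes. Scramble replicate 1 was the highest of its group in COX4I1, COX5A, COX5B, COX6B1, COX7A2, COX7B and COX8A.

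Smaller differences were found at COX7A2L and COX6C. COX7A2L, known for joining complexes III and IV into supercomplexes, read 6.84, 6.97 and 6.87 against 6.78, 6.45 and 6.76. Its groups were separate by a small margin, with a difference of 0.23 (SE 0.11, limma adjusted p = 0.412). COX6C was at 0.18 (SE 0.13), with overlapping groups. The row carrying both COX7C and the small nucleolar RNA gene SNORD138 read 8.57, 8.46 and 8.58 against 8.23, 7.87 and 7.97, a difference of 0.51 (SE 0.11, limma adjusted p = 0.0887 when such rows were added to the test). The share of the subunit gene in that row cannot be told from the array.

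Complex IV assembly factors did not all share the direction of the subunits. Of the 7 measured, 4 were fitted above 0 and 3 below, with a median of 0.10 that fell to 0.029 without scramble-labelled replicate 2, and none was called. COX10 and COX15 make heme A, the cofactor of the complex, in successive steps. COX15 read 7.38, 7.66 and 7.28 in the KHSRP-labelled arrays and 7.92, 8.20 and 8.16 in the scramble-labelled ones. The groups were separate in the direction opposite to that of the subunit genes, with a difference of -0.65 (SE 0.13, limma adjusted p = 0.0705) and a 95% interval from -0.95 to -0.35. COX10 read 6.75, 6.80 and 6.78 against 6.95, 6.86 and 6.98, also separate, with a smaller difference of -0.15 (SE 0.08, limma adjusted p = 0.444).

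The factors that carry copper to complex IV were mixed. COX17, the copper chaperone of the intermembrane space, read 7.90, 7.35 and 7.97 against 7.54, 7.05 and 7.23. Replicate 2 of the KHSRP-labelled arrays stood below the highest scramble-labelled value, and the difference was 0.47 (SE 0.19, limma adjusted p = 0.333). SCO1, which receives copper from COX17, read 9.03, 9.07 and 9.12 against 9.38, 9.17 and 9.19, separate and lower, at -0.18 (SE 0.09, limma adjusted p = 0.437). SCO2 was at 0.10 (SE 0.11) and COX11 at 0.23 (SE 0.13). SURF1, an early assembly factor, was at 0.27 (SE 0.11, limma adjusted p = 0.329).

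**Figure D3:**
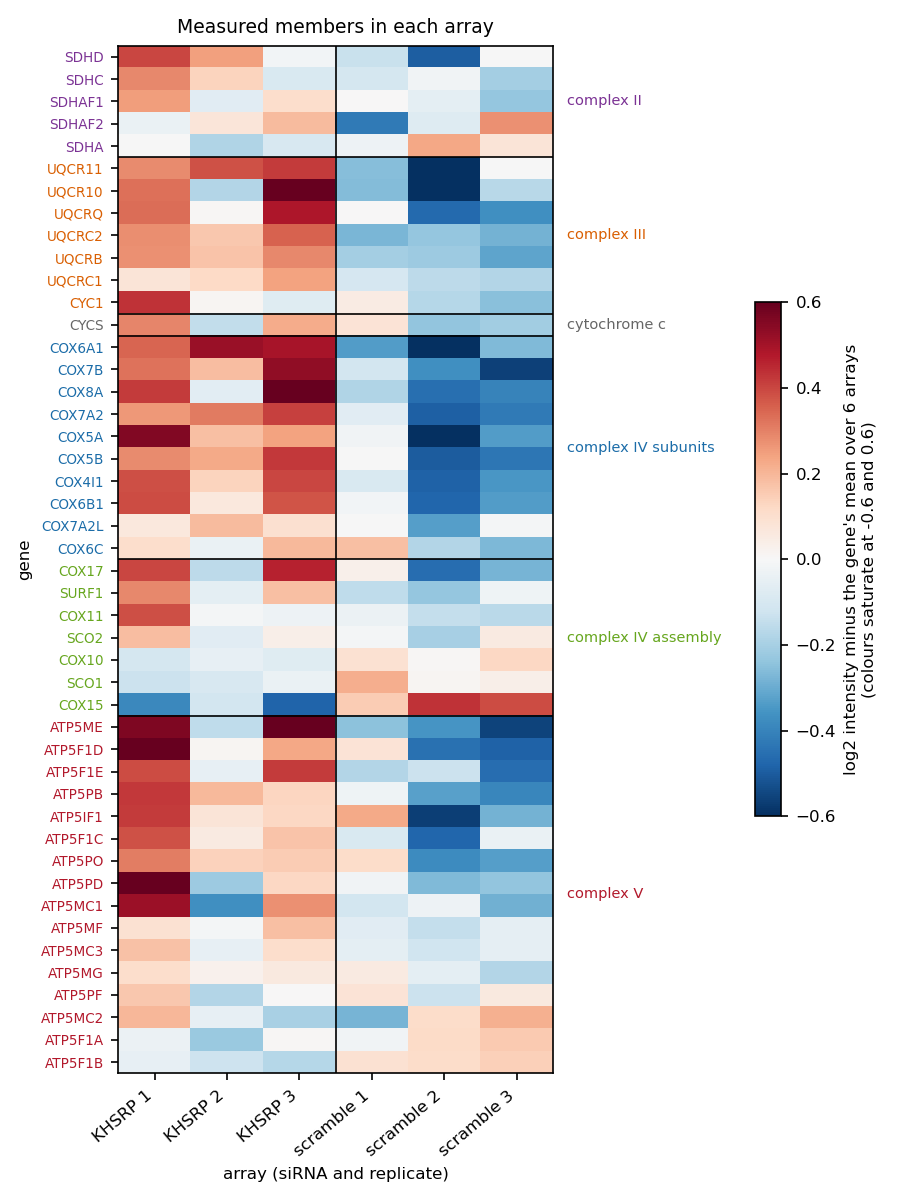
Rows are the 46 measured members grouped by role and ordered by difference, columns are the 6 arrays, and colour is the log2 intensity minus the gene's mean over the arrays. Most complex III and complex IV subunit rows are red in the KHSRP-labelled arrays and blue in the scramble-labelled ones, while COX15, ATP5F1A and ATP5F1B show the opposite in most arrays.

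Complex V makes ATP in its F1 head, driven by rotation of a ring in the membrane. None of its 16 genes, all measured, was called. Their median log2 fold change was 0.32, with 12 fitted above 0 and 4 below. The subunits of the head differed in direction. ATP5F1B, the beta subunit that carries the catalytic sites, read 15.76, 15.68 and 15.63 in the KHSRP-labelled arrays and 15.90, 15.91 and 15.95 in the scramble-labelled ones. Every KHSRP-labelled value was the lower, with a difference of -0.23 (SE 0.08, limma adjusted p = 0.230). ATP5F1A, the alpha subunit, was at -0.17 (SE 0.10, limma adjusted p = 0.507), with overlapping groups.

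The central stalk genes ATP5F1C, ATP5F1D and ATP5F1E, and most genes of the peripheral stalk, lay on the other side of 0. ATP5F1C, the gamma subunit that turns inside the head, read 10.02, 9.69 and 9.81 against 9.54, 9.16 and 9.60, a difference of 0.41 (SE 0.14, limma adjusted p = 0.253). ATP5F1E, the epsilon subunit, read 12.83, 12.39 and 12.86 against 12.26, 12.31 and 11.98, a difference of 0.51 (SE 0.15, limma adjusted p = 0.189). Both had separate groups by small margins. ATP5F1D, the delta subunit, was at 0.57 (SE 0.20) with overlapping groups. Among the peripheral stalk genes, ATP5PB was at 0.50 (SE 0.13, limma adjusted p = 0.133) and ATP5PO at 0.40 (SE 0.14), both with separate groups. ATP5PD was at 0.35 (SE 0.20) and ATP5PF at -0.01 (SE 0.11), with overlapping groups.

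In the membrane part, ATP5ME, the e subunit at the dimer interface, read 12.54, 11.83 and 12.73 against 11.73, 11.62 and 11.42. The groups were separate, with replicate 2 of the KHSRP-labelled arrays only just above the scramble-labelled ones, and the difference was 0.77 (SE 0.23, limma adjusted p = 0.178). The genes ATP5MC1, ATP5MC2 and ATP5MC3 encode the same mature ring subunit behind different import sequences. ATP5MC1 read 6.67, 5.78 and 6.43 against 6.04, 6.12 and 5.86, a difference of 0.28 (SE 0.22) that ran from 0.096 without KHSRP-labelled replicate 1 to 0.54 without KHSRP-labelled replicate 2. ATP5MC2 was at -0.03 (SE 0.16), with a sign that turned in 4 of 16 alternatives. ATP5MC3 read 10.92, 10.70 and 10.85 against 10.69, 10.62 and 10.69, a difference of 0.16 (SE 0.09, limma adjusted p = 0.494) with separate groups. None of the 3 genes was called. ATP5MF and ATP5MG were at 0.17 (SE 0.08) and 0.12 (SE 0.09), and ATP5IF1, which encodes the inhibitor of ATP hydrolysis, was at 0.41 (SE 0.20).

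The arrays within a group were not alike. The median deviation of the 46 members from each gene's mean was 0.29, -0.0016 and 0.18 in KHSRP-labelled replicates 1, 2 and 3, and -0.03, -0.23 and -0.22 in scramble-labelled replicates 1, 2 and 3. KHSRP-labelled replicate 2 and scramble-labelled replicate 1 thus stood nearest to each other across the groups. For complex III the 6 deviations were 0.28, 0.12 and 0.35 against -0.20, -0.23 and -0.25, and for complex IV subunits 0.34, 0.18 and 0.40 against -0.04, -0.48 and -0.34. Neither set overlapped between the groups. Complex V, at 0.34, -0.05 and 0.13 against -0.03, -0.14 and -0.21, overlapped through those same arrays.

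The arrays with higher table-wide medians were also those where the members read higher within each group, though the order among them differed. KHSRP-labelled replicates 1 and 3 and scramble-labelled replicate 1 had array medians from 4.37 to 4.38, and the other 3 arrays from 4.30 to 4.31. Among the 3 arrays with higher medians the members' median difference was 0.31, with 39 of 46 above 0, and among the 3 with lower medians it was 0.23, with 36 of 46 above 0. Within these splits complex III was at 0.49 and 0.42, complex IV subunits at 0.41 and 0.60, and complex V at 0.24 and 0.11. The split was made after the values were seen and leaves 1 array on a side, so no test was run. The part of the array medians in the difference was not tested beyond these values and the fits with them centred or as a covariate.

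**Figure D4:**
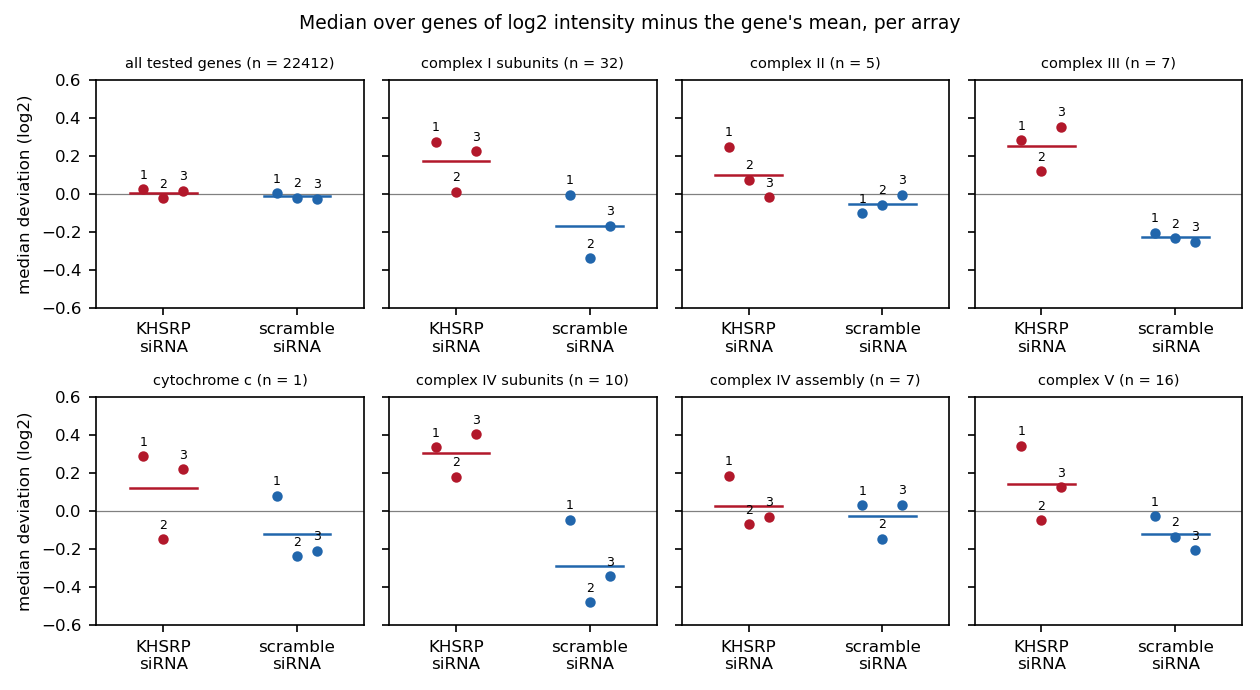
Each point is the median, over the genes of a set, of log2 intensity minus the gene's mean, in 1 array numbered by replicate, and lines are the means of 3 arrays. Complex III and complex IV subunit genes separate the groups in every array, all tested genes stay near 0, and KHSRP-labelled replicate 2 and scramble-labelled replicate 1 approach each other in complex V.

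Array brightness was compared with the difference because all 46 members were above the median level of tested genes. Among the 22 members above the 90th percentile of levels the median difference was 0.46, against 0.01 over all 2242 genes there. For the 18 members between the 75th and 90th percentiles it was 0.25, against 0.0018 over 3361 genes, and for the 6 between the 50th and 75th it was 0.22, against 0.03 over 5603. Of the measured members, 29 have at least 1 pseudogene named after them in the gene table. Their median was 0.41, against 0.25 for the 17 with none. Probes of near-identical copies can share signal, so the split between such a gene and its copies is uncertain. Members without a named pseudogene include most of the assembly factors, namely SDHAF1, SDHAF2, COX10, COX15, SCO1, SCO2 and SURF1. The median was 0.15 over the 9 assembly factors and 0.42 over the 35 members that are subunits or cytochrome c. The 2 medians by pseudogene thus also differ in role, and the part of each was not tested.

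**Figure D5:**
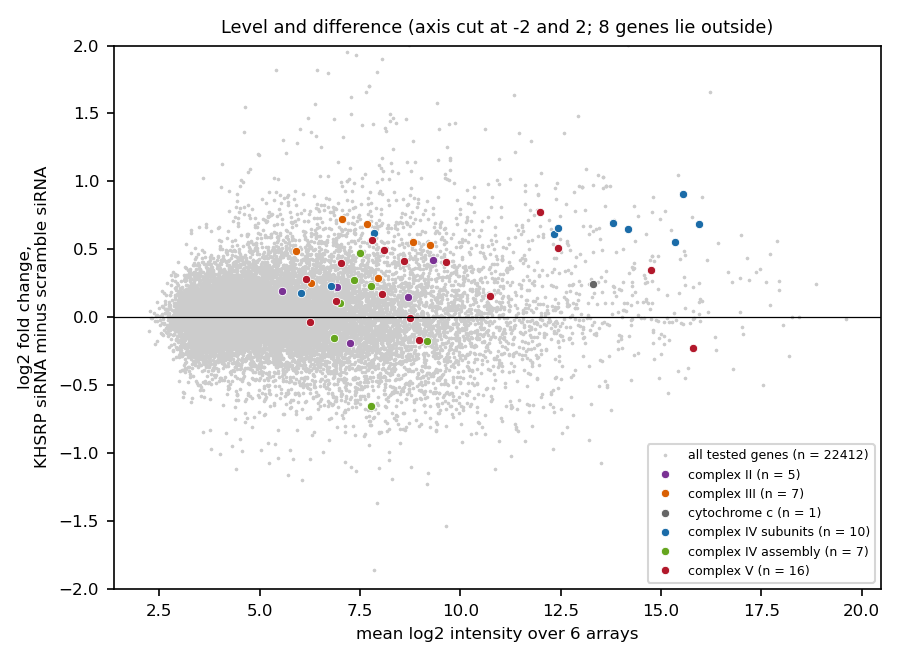
Grey points are all tested genes, by mean log2 intensity over 6 arrays and log2 fold change, and coloured points are the members by role; 8 genes lie outside the plotted range. Most members stand above 0 over the whole range of intensities, and COX15 and ATP5F1B lie below it.

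Other genes of the pathway gave a mixed picture. Complex I, which feeds in electrons from NADH, had 28 of 32 measured subunit genes fitted above 0 and a median log2 fold change of 0.38, with 0 called by limma and 17 at an unadjusted p under 0.05, 15 of them higher. NDUFS4, a subunit of its peripheral arm, was at 1.42 (SE 0.24, limma adjusted p = 0.0530), NDUFV2 at 0.47 (SE 0.09) and NDUFA1 at 0.45 (SE 0.14). The median deviations of complex I by array were 0.28, 0.01 and 0.22 against -0.0037, -0.34 and -0.17, so that KHSRP-labelled replicate 2 and scramble-labelled replicate 1 were again nearest to each other. No difference between complex I and complexes II to V was tested.

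Among 26 measured further assembly and expression factors of complexes II to V, 1 rose and 1 fell, with a median of 0.06. LRPPRC, which stabilises mitochondrial mRNAs, read 13.56, 13.39 and 13.29 in the KHSRP-labelled arrays and 14.02, 14.16 and 14.10 in the scramble-labelled ones. Its groups lay well apart, and it fell by 0.68 on the log2 scale (SE 0.10, limma adjusted p = 0.0473). Its binding partner SLIRP was at 0.78 (SE 0.23, limma adjusted p = 0.186), with overlapping groups. TMEM242, known for a part in ATP synthase assembly, read 5.65, 5.88 and 5.88 in the KHSRP-labelled arrays, all above the highest scramble-labelled value of 5.16. It rose from 5.06 ± 0.09 to 5.81 ± 0.13 (SD, n = 3 each), by 0.75 (SE 0.10, limma adjusted p = 0.0438). The call of LRPPRC ended in 10 of 16 alternatives and that of TMEM242 in 11, among them 5 of the 6 that leave out an array for each, all but that without KHSRP-labelled replicate 1. Both kept their direction in all 16.

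Of 7 measured tissue isoforms and further subunits none was called, with a median of -0.07. The median level of this set was 4.46, under the 4.73 of olfactory receptor genes. COX4I2, COX7A1, COX7B2 and COX8C had both group means under 4.73, so the median difference says little about expressed genes. ATP5MJ, a small ATP synthase subunit, was at 0.72 (SE 0.20, limma adjusted p = 0.151) and DMAC2L at -0.13 (SE 0.08). The citric acid cycle had 8 of 11 measured genes fitted below 0, a median of -0.07 and none called. CS, the citrate synthase gene, was at -0.49 (SE 0.13, limma adjusted p = 0.135), SUCLG1 at 0.30 (SE 0.10) and MDH2 at -0.01 (SE 0.07). In coenzyme Q synthesis, 1 of 13 genes was called and the median was 0.07. COQ3, a methyltransferase of that pathway, rose from 4.71 ± 0.16 to 5.44 ± 0.10 (SD, n = 3 each, difference 0.73, SE 0.11, limma adjusted p = 0.0473), from a level under the 4.73 of olfactory receptor genes, so its fold is approximate. That call ended in 12 of 16 alternatives. COQ5, also a methyltransferase, was at 0.55 (SE 0.10, limma adjusted p = 0.0675).

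Transport and control genes differed less. None of the 6 measured carriers of ATP, ADP and phosphate and outer membrane channels was called by limma, and 0 had an unadjusted p under 0.05, with a median of 0.06. SLC25A5, an ADP and ATP carrier, was at 0.15 (SE 0.09), VDAC2 at 0.10 (SE 0.09) and SLC25A3, the phosphate carrier, at -0.07 (SE 0.12). Of 12 measured regulators of mitochondrial biogenesis, 0 were called by limma and 0 had an unadjusted p under 0.05, with a median of 0.04. POLRMT, the mitochondrial RNA polymerase, was at 0.26 (SE 0.12), GABPB1 at 0.21 (SE 0.11) and YY1 at 0.06 (SE 0.08). The 13 genes of mitochondrial DNA were not analysed here.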

How the data were processed

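RNA levels were measured on 6 Affymetrix arrays, 3 per siRNA. The authors deposited log2 intensities. Per the submitters' processing notes these came from Affymetrix Expression Console, RMA and Transcriptome Analysis Console with hg19. No versions were found in those notes. RMA can compress differences of dim genes, and array maxima from 19.72 to 19.93 are high for RMA, so that a further transform is possible. Of 70523 rows, 23781 carried 1 gene symbol, updated through a RefSeq table of GRCh38.p14. The row with the highest mean stood for each gene, and no filter on level was applied. Rows with several symbols were left out, except that of KHSRP. The test was limma 3.58.1 (R 4.3.3) over 22412 genes (Benjamini-Hochberg, two-sided), tested first on simulated data. Arrays have no depth, and their number limits the precision. Medians of gene sets and motif counts are descriptions.

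Members, lists and tests were chosen with earlier results of these data known. Genes chosen by rule were, within each role, called members, up to 6 at an unadjusted p under 0.05, the brightest, and ATP5MC1 to ATP5MC3. From other lists they were 2 by smallest p and the brightest. Not all genes of the rule have their values printed in full, and COX10 and COX7A2L, outside the rule, do. Remaining members were named for their roles. Motifs were chosen after windows were seen. Alternatives were a replicate block, 3 renormalizations, a level filter, another variance prior, array weights, other row choices, a covariate and leaving out arrays.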

Additional observations from a re-analysis of the deposited data

How the results depend on the processing

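Over all 16 alternatives the members' median log2 fold change stayed between 0.26 and 0.42. The medians of complex II, complex III and complex IV subunits stayed above 0. That of complex IV subunits, 0.64, ran from 0.49 after quantile normalization again to 0.77 without scramble-labelled replicate 1. COX6A1 was lowest after quantile normalization again, at 0.70. The median of complex IV assembly factors, 0.10, ran from 0.029 without scramble-labelled replicate 2, and 0.036 without KHSRP-labelled replicate 1, to 0.163 without KHSRP-labelled replicate 2. The covariate for array medians and cyclic loess were chosen after seeing the data. Of 46 members, 37 were above 0 and 6 below 0 in all 17 fits, and of 48 named genes 45 kept 1 sign. ATP5MC2, MDH2 and SLC25A3, none of them called, did not. Counts of called genes depended strongly on the setting. Against 170 genes and 2 members higher, limma called 1 gene and 0 members with the replicate block (3385 genes at an unadjusted p under 0.05), 57 and 0 after quantile normalization again (3396), 54 and 0 with array medians centred (3230), 52 and 0 with cyclic loess (3378), 0 and 0 with an intensity trend and robust prior (3097), and 0 and 0 with the covariate for array medians (3535). It called 433 genes and 5 members higher among genes above the median level, and 704 and 9 with array weights. Each of the latter also called 1 member lower, COX15, against 0 in the fit reported. Leaving out 1 array gave 0 to 329 genes (2372 to 3286 at an unadjusted p under 0.05) and 0 members in each case. Members lower at an unadjusted p under 0.05 numbered 4 with array medians centred and 1 to 2 when arrays were left out, against 2. Members with separate, higher groups numbered 22 (11.6% of all tested genes), and 14 after quantile normalization again (8.93%). With an array left out they numbered 22 to 31, where 15.1% to 20.6% of all genes were separate and higher, so these counts are not comparable with 22. Cytochrome c moved from 0.24 to 0.021 after quantile normalization again, and the complex V median ran from 0.15, without KHSRP-labelled replicate 1, to 0.46 when arrays were left out. The cause was not tested. Whether replicate numbers pair the arrays could not be settled. Deviations of same-numbered arrays correlated over genes at 0.16, 0.06 and -0.08. KHSRP-labelled replicate 2 correlated best with scramble-labelled replicate 3, at 0.18. The deviations within a group sum to 0, which ties these correlations to each other. Over the members, replicate 1 had the highest median deviation and replicate 2 the lowest in both groups. The block moved the count of called genes from 170 to 1.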
